A study of Mus musculus with 15 samples.

Results

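H3K4me3, the trimethylation of lysine 4 of histone H3, was described in HPC-7 cells as the set of reproducible H3K4me3 regions of 3 control libraries. Peaks of the 3 lists on chromosomes 1 to 19, X and Y were merged from 1 shared bp on, and regions with a peak in at least 2 libraries were kept. This gave 16653 regions of 18455 merged ones, of which 15333 (92.1%) had a peak in all 3 libraries. A region was called broad from 2000 bp, narrow below 500 bp and intermediate between these lengths. By these limits 344 regions (2.07%) were broad, 12929 intermediate and 3380 (20.3%) narrow. The broad regions held 5.08% of all bases marked.

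HPC-7 is a mouse early haematopoietic cell line made from embryonic stem cells. The libraries were made by CUT&Tag, in which an antibody brings a transposase to its target and the DNA beside it is cut and tagged, from about 150000 cells per reaction. Control cells, called WT in the titles and given the name of a luciferase shRNA (shLUC) in the descriptions, were profiled for IgG, H3K4me3, YY1, a zinc finger transcription factor, and SMC3, a subunit of cohesin. SMC3 alone was profiled in cells that carry an shRNA to YY1 (shYY1). Each of the 5 groups had 3 libraries, named biological replicates by the protocol in the labels. The IgG libraries were not analysed here, and the series holds no YY1 or H3K4me3 library of shYY1 cells. H3K4me3 is therefore described in control cells, and how far YY1 was depleted in shYY1 cells was not examined. Only the first SMC3 library of each arm names Abcam in its description, and whether the others used the same antibody is not given there.

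H3K4me3 is laid down by the SET1 and MLL (KMT2) methyltransferase complexes and removed by KDM5 demethylases. It marks nucleosomes around the starts of active genes, mostly at promoters rich in CpG, the dinucleotide at which mammalian DNA is methylated and which CXXC-domain proteins of these complexes bind when it is not methylated. Most marked promoters carry a short block of it, and unusually long blocks have been described at genes of cell identity and at tumour suppressor genes.

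Long and short regions are illustrated by 4 promoters. Printed are the 250 bases upstream of the annotated start, 5′ to 3′ on the strand of the gene, from the RefSeq promoter table of GRCm38.p6, with each CpG in capitals. Zmiz1 and Brd2 had the longest and Efna2 and Ceacam1 the shortest regions among genes whose region was found in 3 of 3 libraries and covered the whole promoter window. The stretches are chr14:25458935-25459184 (plus strand) for Zmiz1, chr17:34119901-34120150 (minus) for Brd2, chr10:80179232-80179481 (plus) for Efna2 and chr7:25477626-25477875 (minus) for Ceacam1.
Zmiz1: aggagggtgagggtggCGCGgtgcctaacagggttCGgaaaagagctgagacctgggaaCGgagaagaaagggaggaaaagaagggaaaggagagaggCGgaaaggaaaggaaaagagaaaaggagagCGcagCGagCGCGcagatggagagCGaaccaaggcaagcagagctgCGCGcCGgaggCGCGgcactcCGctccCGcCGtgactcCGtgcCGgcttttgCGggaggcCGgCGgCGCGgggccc
Brd2: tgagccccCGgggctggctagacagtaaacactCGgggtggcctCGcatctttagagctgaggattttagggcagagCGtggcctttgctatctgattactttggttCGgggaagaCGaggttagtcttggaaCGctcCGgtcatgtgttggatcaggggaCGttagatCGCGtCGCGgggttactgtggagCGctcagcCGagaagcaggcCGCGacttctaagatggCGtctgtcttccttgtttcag
Efna2: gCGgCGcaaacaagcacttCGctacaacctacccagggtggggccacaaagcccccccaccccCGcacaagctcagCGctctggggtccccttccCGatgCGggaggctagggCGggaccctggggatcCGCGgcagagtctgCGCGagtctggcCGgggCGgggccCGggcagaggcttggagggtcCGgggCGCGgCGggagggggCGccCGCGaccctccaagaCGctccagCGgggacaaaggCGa
Ceacam1: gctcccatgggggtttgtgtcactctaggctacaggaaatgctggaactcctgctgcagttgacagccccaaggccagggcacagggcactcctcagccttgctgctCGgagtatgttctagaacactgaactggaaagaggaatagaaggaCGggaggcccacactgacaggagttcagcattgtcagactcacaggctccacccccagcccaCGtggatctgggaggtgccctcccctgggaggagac
Zmiz1 encodes a coactivator of the PIAS type and lay under a region of 4209 bp, with 25 CpG in the printed stretch. Brd2, a reader of acetylated histones, lay under 4196 bp with 18 CpG, and the stretch holds 1 match to the YY1 motif AANATGGC near its 3′ end. The printed stretches of Zmiz1 and Brd2 lie within the annotated gene spans, downstream of the outermost end. Efna2, an ephrin ligand, had as many CpG as Zmiz1, 25, under a region of 360 bp. Ceacam1, a cell adhesion receptor, had 3 CpG under 365 bp. CpG number therefore differed between the 2 short regions as much as between long and short ones.

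The 3 H3K4me3 lists held 16763, 17895 and 17493 peaks (17384 ± 574, SD, n = 3). They give positions only, with no height, score or read count, so depth is unknown and a longer peak cannot be told apart from a stronger one. Median peak length was 837, 686 and 731 bp in libraries 1, 2 and 3, and 292, 125 and 144 peaks reached 2000 bp. Library 1 thus had the fewest and the longest peaks. In each list the smallest gap between neighbouring peaks was 1 bp above the shortest peak: 206 and 205 bp, 173 and 172 bp, and 189 and 188 bp. Both values were highest in library 1, and their part in the lengths was not tested. Over the 14157 regions made of a single peak in every library, length had Spearman correlations of 0.95 to 0.96 between libraries. This is a description over regions that share the same cells and annotation. It leaves out every region that a library split, and a rank correlation does not register peaks that are longer throughout 1 library.

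Region length had a median of 881 bp and a range of 193 to 4209 bp, with no gap at either limit. The regions nearest to the upper limit measured 2000 and 2001 bp inside and 1999 bp, in a pair of regions, outside. At the lower limit they measured 499 bp and 500 bp, again in pairs. The plot of length by location shows 1 continuous distribution whose right tail holds the broad regions.

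**Figure D1:**
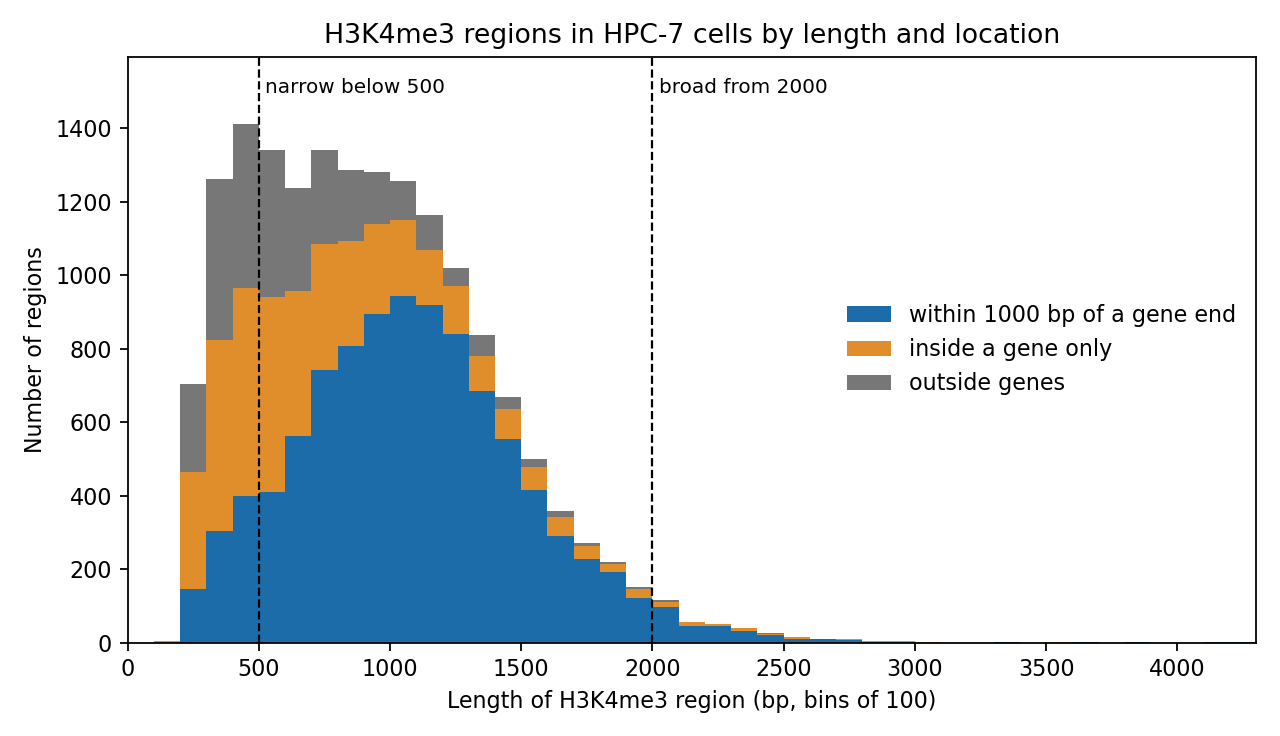
Number of H3K4me3 regions (y axis) per 100 bp of region length (x axis, bp), stacked by location: within 1000 bp of an end of a protein-coding gene, inside a gene only, or outside genes. Dashed lines mark 500 and 2000 bp; regions at gene ends (median 1065 bp) sit to the right of those inside (631 bp) and outside (568 bp) genes.

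Broad regions were found in all 3 libraries without exception, but not as 1 block in each. Library 1 covered 329 of the 344 with 1 peak, library 2 covered 193 and library 3 covered 234, with 99.5%, 89.3% and 91.1% of the bases of the regions. A single peak of 2000 bp or longer was present in all 3 libraries in 91 regions (26.5%), in 2 libraries in 66, in 1 library in 156 and in none in 31. Of those 156, library 1 alone gave the long peak in 136. Without library 1 the number of broad regions was 184, against 328 without library 2 and 312 without library 3. Narrow regions were less often shared, with 66.3% found in 3 of 3 libraries against 98.6% of intermediate ones. Region length spans the peaks of all libraries, so a region with more libraries can be longer by the rule itself.

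At the genes with the longest regions the libraries split into these kinds. Zmiz1 had longest peaks of 4166, 2217 and 2203 bp in libraries 1, 2 and 3, with libraries 2 and 3 dividing the region into 2 peaks each. Brd2, whose region (chr17:34118738-34122933) also reaches an end of H2-DMa, a subunit of the peptide editor of MHC class II loading, had 3926, 2117 and 2082 bp. In Foxo3 (3806 bp), a forkhead factor of stress resistance and stem cell quiescence, they were 3658, 2314 and 1954 bp. For Cdk6 (3658 bp), a G1 cyclin-dependent kinase of blood progenitors, they were 3648, 2100 and 1144 bp. In each of these 4 regions the longest peak of library 1 exceeded those of the other libraries by more than 1 kb.

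Jun (2994 bp, chr4:95050499-95053492), the AP-1 subunit, was marked alike in every library, with single peaks of 2994, 2946 and 2962 bp. When length was taken as the median over libraries of the longest single peak, Jun ranked first of all genes and Zmiz1 fell to rank 62. Rap2b, a small GTPase, had 2752, 2749 and 2749 bp, and Atxn1, a transcriptional corepressor, 2758, 2795 and 2621 bp. Polr2l, a small subunit of RNA polymerases, had 2601, 2729 and 2571 bp. The region of Polr2l is shared with its neighbour Tspan4 and lies mostly within the span of Tspan4. Pfn1 (2883 bp), the actin-binding profilin, had 2878 and 2819 bp in libraries 1 and 3 but 1444 bp in library 2, where the region was split. A single peak of at least 2000 bp in every library stood at 107 of the 360 genes with a broad region at an end, among them Dusp4 (2525, 2520 and 2467 bp), a MAP kinase phosphatase, and Hnrnpa2b1 with Cbx3 (2527, 2441 and 2448 bp), an RNA-binding protein and a heterochromatin protein that share the region.

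**Figure D2:**
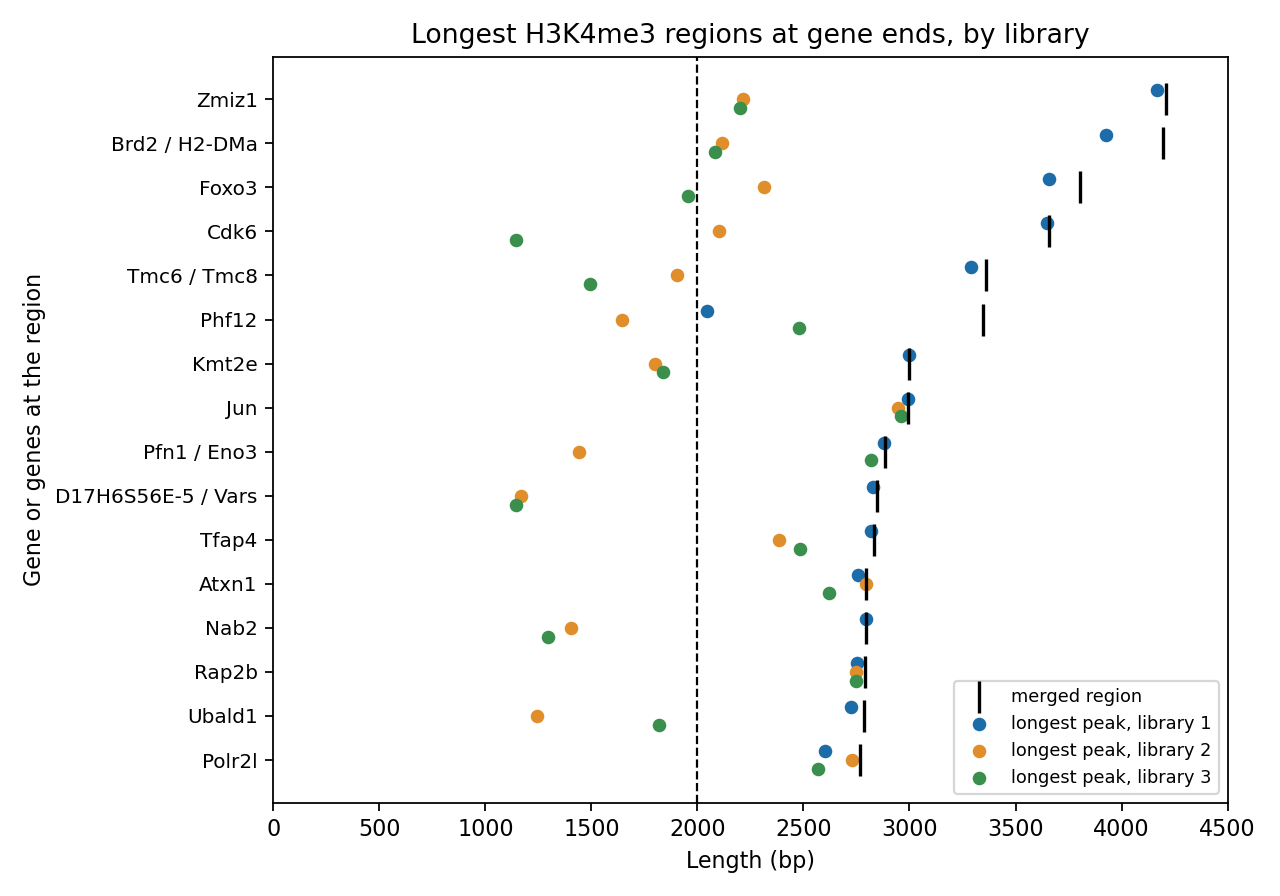
Length in bp (x axis) of the merged region (black bar) and of the longest peak of each of the 3 H3K4me3 libraries (points) at the 16 distinct regions of the 20 genes with the longest region at an end (y axis). Jun, Rap2b, Atxn1 and Polr2l have all points near the bar, while at Zmiz1, Brd2, Foxo3 and Cdk6 only library 1 approaches it; the dashed line marks 2000 bp.

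The other genes among these 20 were Tmc6 and Tmc8 (3361 bp), neighbouring transmembrane channel-like genes that share 1 region, Phf12 (3346 bp), a PHD finger subunit of a SIN3 corepressor complex, and Kmt2e (2998 bp), an MLL-family protein. Vars, the valyl-tRNA synthetase, shared 2845 bp with D17H6S56E-5. Tfap4 (2831 bp), a helix-loop-helix factor, Nab2 (2793 bp), a corepressor of EGR factors, and Ubald1 (2784 bp) completed the set. Without library 1 the longest region at an end fell from 4209 to 1119 bp for Zmiz1 (rank 4216 of all genes), from 4196 to 1139 bp for H2-DMa and from 3361 to 528 bp for Tmc6. D17H6S56E-5 and Vars fell to 1211 bp and Nab2 to 1402 bp, while Brd2 had 2117 bp, Foxo3 2314 bp, Cdk6 2100.0 bp and Tfap4 2482 bp.

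The next question was where the regions lie. Location was taken against 21887 protein-coding genes, whose table gives spans without strand, so a region was placed at a gene end when it came within 1000 bp of one or the other end. Of broad regions 81.4% lay at a gene end, 15.7% inside a gene only and 2.91% outside genes. Of narrow regions 25.1% lay at a gene end, 41.7% inside and 33.2% outside. In the libraries taken singly, 79.7%, 67.9% and 70.4% of the peaks that lay in broad regions were at gene ends. Of the peaks in narrow regions 26.7%, 25.9% and 25.5% were. Peaks were classed here by their merged region and not by their own length, so pieces of a split broad region are included. The lowest share for broad regions, 67.9%, was above the highest for narrow ones, 26.7%. The difference was 46.6 ± 5.63 percentage points (SD, n = 3), with a two-sided exact sign permutation p of 0.25, the smallest that 3 libraries allow. A longer peak reaches a window more easily: counting a peak only with 50% of its bases in the windows left 36.9 points.

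Against the annotated starts of the RefSeq promoter table, which holds 17492 of the genes (79.9%), 73.8% of broad, 53.8% of intermediate and 8.49% of narrow regions covered a start. Starts on both strands lay within 12.2% of broad and 5.14% of intermediate regions, and ends of 2 or more genes were within reach of 22.1% and 12.4%. Narrow regions had another region within 2000 bp in 34.6% of cases, against 9.30% of broad ones. By these counts narrow regions lay more often beside another region and seldom covered a start. Both contrasts follow in part from the length rule. A longer region covers starts and gene ends more easily, and peaks merged into a region no longer count as its neighbours. With starts within 1000 bp of the region also counted, the shares were 74.4% of broad, 60.1% of intermediate and 22.0% of narrow regions. How far length and merging account for these differences was not tested.

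Around a single annotated start, upstream and downstream reach together make up region length, so the classes differ in reach largely by definition. Broad regions were longer on both sides. Their median reach was 899 bp upstream and 1335 bp downstream (n = 171 regions), against 347 and 718 bp for intermediate regions (n = 5616) and 166 and 211 bp for narrow ones (n = 266). More sequence lay downstream than upstream in 69.0%, 80.1% and 55.6% of them. The excess of downstream over upstream reach held in each library for broad regions, with 881 and 1310 bp, 552 and 951 bp, and 659 and 1004 bp. Where libraries 2 and 3 split a broad region, the gap covered the start in 6.12% of 98 and 0% of 62 gaps and was centred, at the median, 348 and 705 bp downstream of it. In library 1, which split few broad regions, 3 of 8 gaps (37.5%) covered the start and the median position was -8.50 bp.

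**Figure D3:**
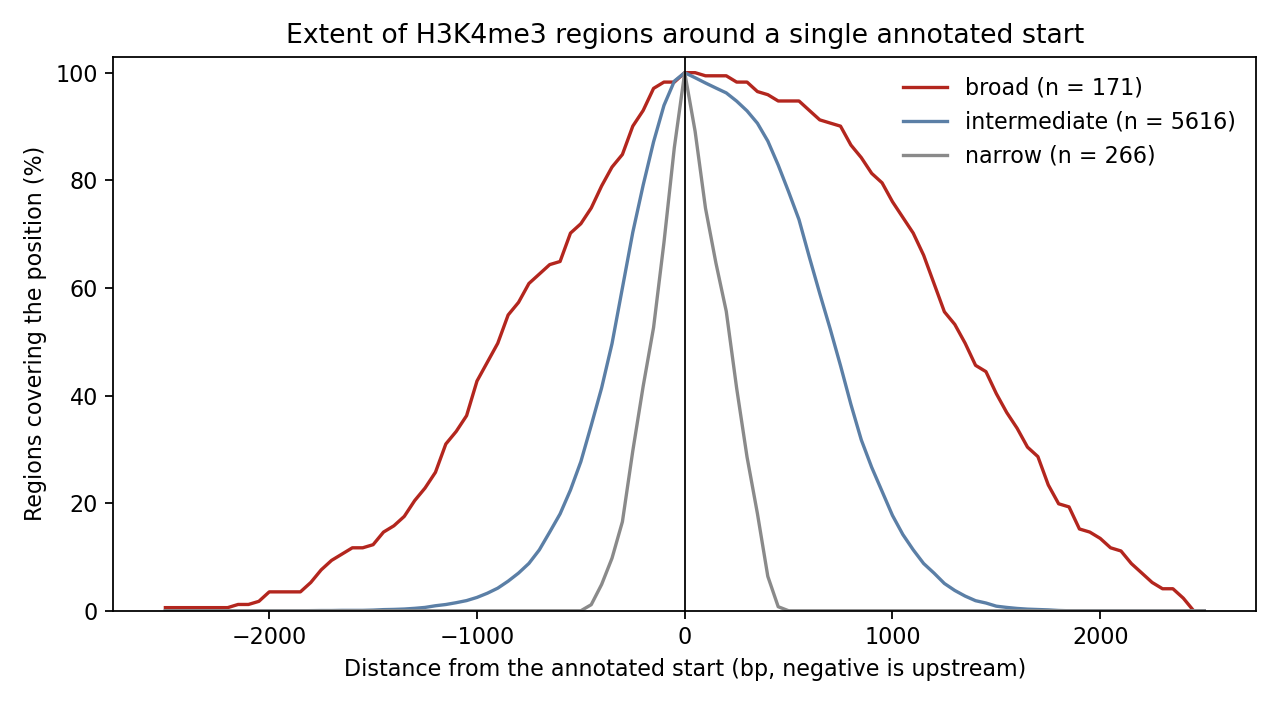
Percent of regions that cover each position (y axis) against distance from the annotated start in bp (x axis, negative upstream), for regions with 1 annotated start within them. The curve for broad regions is the widest on both sides, which follows largely from the length classes, and all 3 curves reach further downstream at the median.

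Some regions away from coding ends reached an end of a noncoding gene, whose strand the table does not give. Of the 10 broad regions outside protein-coding genes, 7 reached an end of a long noncoding RNA gene, against 30.7% of intermediate and 18.1% of narrow outside regions that reached an end of any noncoding gene. The longest, 2737 bp at Gm36315 (chr18:35887620-35890356), had longest peaks of 2737, 962 and 968 bp. The next were 6530402F18Rik (2442 bp), Gm17762 with Gm33085 (2414 bp) and Dleu2 (2331 bp), the host of the miR-15a and miR-16 hairpins, which had 2331, 2275 and 2319 bp in the 3 libraries. The fifth, 2266 bp at chr1:153602163-153604428, lay 15041 bp from the nearest annotated gene, the pseudogene Gm6652. Inside genes, the longest blocks were in Gse1 (3520 bp), Kdm6b (3096 bp), an H3K27 demethylase, Septin9 (2941 bp), Pafah2 (2920 bp) and Nr4a2 (2844 bp), an orphan nuclear receptor. These were chosen as the longest of their kind after their values were seen. An annotated coding start was within 1000 bp of 68.5% of broad, 34.6% of intermediate and 12.3% of narrow inside regions.

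At the level of genes, 10123 of 21887 protein-coding genes (46.3%) had a region at an end and 11398 (52.1%) had one anywhere in or within 1000 bp of the span. The longest region at an end had a median of 1142 bp (quartiles 889 and 1414). It was broad at 360 genes (3.56% of those with a region at an end) and narrow at 359 (3.55%). Those 360 genes shared 280 regions, and 43.3% of them shared their region with another gene. Gene lists are described below by counts and medians beside these values, without a test of the list.

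The labelled cell type was checked against marker genes. Of 28 factors of blood progenitors 27 had a region in the span and 23 at an end, beside 52.1% and 46.3% of all protein-coding genes. None of 12 pluripotency genes had any, and of 19 genes of other lineages the neuronal tubulin Tubb3 alone did, away from its own start (321 bp). Of 16 developmental regulators, 5 had a region in the span and 3 at an end. Of these 3, 1 was broad (2666 bp), beside 3.56% of all genes. Maturation genes of single blood lineages were marked at an end in 21.4% to 35.7% of cases by list, under the 46.3% of all genes. A region at an end was found at 5 of 14 erythroid genes, led by the receptor Epor (1758 bp) and the factor Klf1 (1231 bp). The globins Hba-a1 and Hbb-bt had none. A region at an end was also found at 3 of 14 granulocyte and monocyte genes, led by the myeloperoxidase gene Mpo (1825 bp), and at 3 of 12 megakaryocyte and mast cell genes. It was found at 4 of 14 lymphocyte genes, the longest of 873 bp at Cd3d and away from its own start.

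Among the progenitor factors, 2 of the 23 were broad, beside 3.56% of all genes. Mecom, the EVI1 zinc finger factor, had 2234 bp (longest peaks 2152, 2091 and 2193 bp) and Hhex, a homeobox factor, 2006 bp (1952, 1864 and 1870 bp). Etv6, an ETS repressor, followed with 1856 bp, and Tal1, a helix-loop-helix factor of the stem cell, had 1660 bp. The median of the list, 1012 bp, was 130.0 bp under that of all genes, but this turned with the choice of region. Counting the longest region anywhere in the gene gave 1390.0 bp for 27 genes, 253 bp above all genes, with Gata2 at 2199 bp, Spi1 at 1932 bp, Zfpm1 at 1939 bp and Fli1 at 1782 bp inside their spans. Beside 3.65% of all genes broad by that count, 3 of the 27 were. At its outer end Fli1 had 420 bp, 1 of 2 narrow members with Ikzf2 (380 bp).

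Surface proteins of progenitors had a region at an end in 14 of 18 cases, beside 46.3% of all genes, with a median of 1292 bp. Of the 14, only the chemokine receptor Cxcr4 was broad (2008 bp, with 2008, 1939 and 1982 bp in the libraries), beside 3.56% of all genes. Cd34, a sialomucin (1718 bp), and Kit, the stem cell factor receptor (1668 bp), followed, though libraries 2 and 3 had 668 and 643 bp as the longest peak of Cd34. The list stood 150.0 bp above all genes, 8 bp above them without library 1, and at -15.5 bp relative to them when the single peak was the measure. In the libraries alone it stood at 199.5, -84.0 and -72.0 bp. The narrow member was Spn, whose 245 bp lay away from its own start.

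Regulators of H3K4 methylation had the highest median of the lists by this count at 1456 bp, 314 bp above all genes (20 of 22 genes). Over all protein-coding genes, 46.3% had a region at an end, and 3.56% of those were broad. The demethylase Kdm5a (2235 bp, with 2235, 2181 and 1668 bp) and Wdr5 (2037 bp), a core subunit of the methyltransferases, were broad. The methyltransferase Kmt2a had 1866 bp and the CXXC subunit Cxxc1 1148 bp. Polycomb genes, of the opposing repressive system, had 1374 bp (25 of 27), with none broad and Phf19 the longest at 1946 bp. Both lists stood above all genes in the alternatives tried, by 257 to 599.5 bp and 206 to 308 bp. By the longest single peak of each library they stood above all genes by 299.5, 38.5 and 272 bp and by 232, 58.0 and 233 bp, lowest in library 2.

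Glycolysis genes had 4 broad members of 17, beside 3.56% of all genes: Eno3, Aldoa (2327 bp), Hk2 (2171 bp) and Pfkp (2142 bp). The region of Eno3 is that of Pfn1 and lies away from the start of Eno3. Splicing factors had 4 of 43, beside the same 3.56% of all genes. All 4 were hnRNP-type RNA-binding proteins: Hnrnpa2b1, Hnrnpl (2366 bp), Hnrnpk (2208 bp) and Ptbp1 (2070 bp). Medians were 1434 and 1378 bp. Glycolysis genes stood 292 bp above all genes, and 180.0 to 508 bp above them in the alternatives. In the libraries alone they stood above by 199.5, 121 and 141 bp. For splicing factors the values were 236 bp, 192 to 257 bp and, in the libraries, 262, 128 and 183 bp. Of the broad members, Hnrnpk kept single peaks of 2120, 2160 and 2096 bp, while Aldoa fell to 1150 and 1241 bp in libraries 2 and 3.

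Immediate early genes had 22 of 24 marked, beside 46.3% of all genes, with a median of 1386 bp. Of the 22, 2 were broad, Jun and Zfp36l2 (2407 bp), an mRNA decay factor, beside 3.56% of all genes with a region at an end. The MAP kinase phosphatase Dusp1 had 1910 bp and Fosb was narrow (480 bp). The list stood 244 bp above all genes with library 1 and at -7.50 bp relative to them without it. By the longest single peak of each library it stood at 266, 25.5 and -24.0 bp in libraries 1, 2 and 3. Tumour suppressors had 3 broad of 22, beside 3.56% of all genes. They were Cdkn1b (2132 bp) and Cdkn2c (2031 bp), inhibitors of cyclin-dependent kinases, and Tet2 (2127 bp), a methylcytosine oxidase. None of these 3 had a single peak of 2000 bp in every library, and Tet2 had 1326, 494 and 1116 bp. The median, 1363 bp, was above all genes by 170.0 to 234 bp in the alternatives and by 215, 134 and 189.5 bp in the libraries alone. Cytokine signalling genes had 17 of 19 marked, beside the same 46.3% of all genes. None was broad and the median was 1341 bp, with Socs4 (1855 bp), Socs5 (1853 bp) and Stat6 (1709 bp) the longest.

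**Figure D4:**
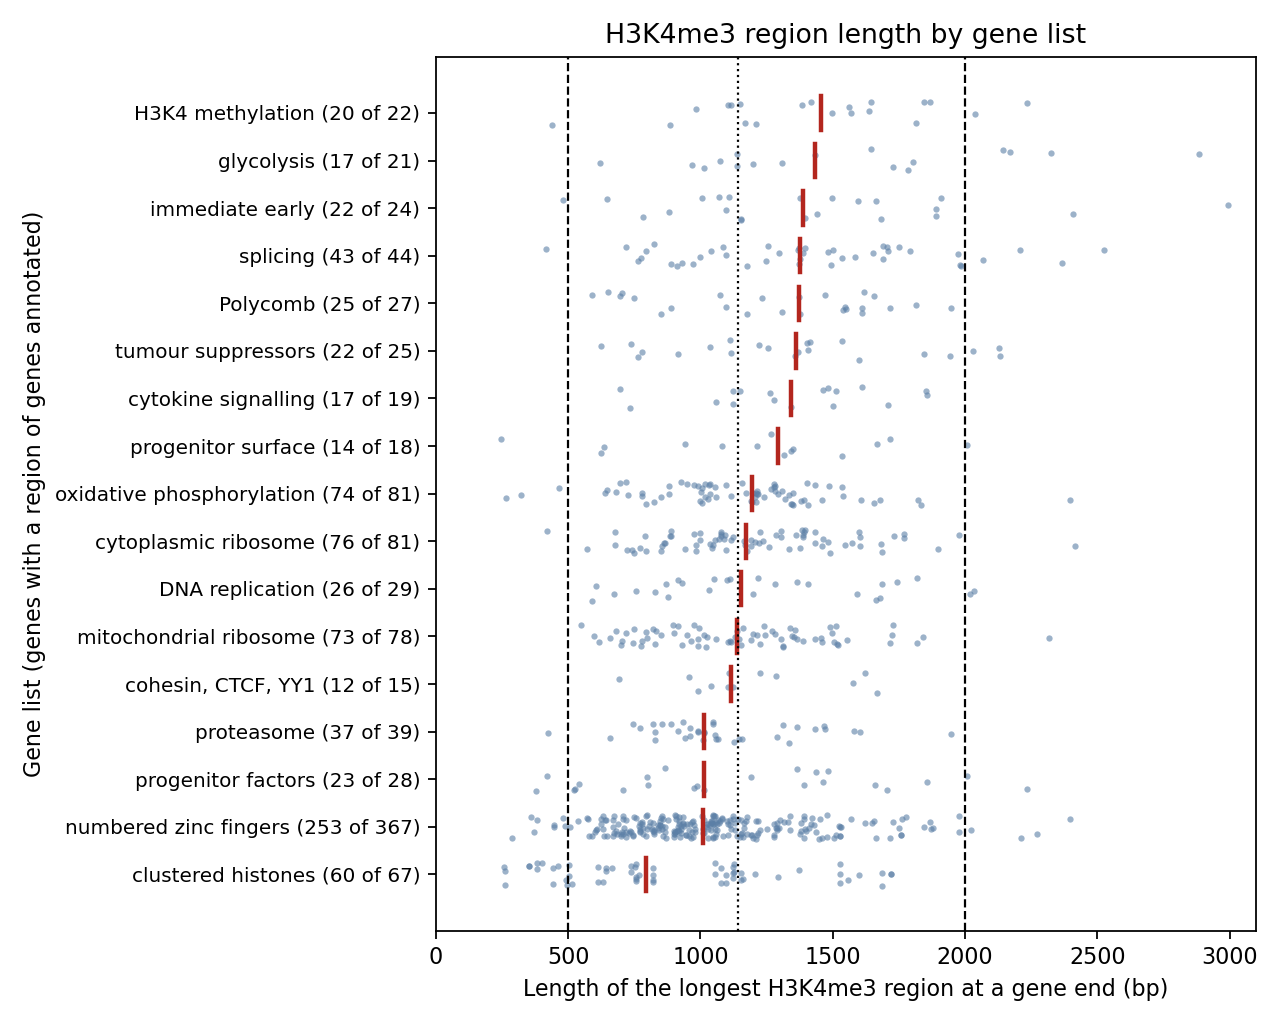
Length in bp (x axis) of the longest H3K4me3 region at an end of each gene (points) for 17 gene lists (y axis, with genes marked of genes annotated). Red bars are list medians, the dotted line is the median of all genes (1142 bp) and dashed lines mark 500 and 2000 bp; clustered histones lie furthest to the left and regulators of H3K4 methylation furthest to the right.

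Large housekeeping complexes were marked almost throughout and, apart from the proteasome, lay near the middle. The counts of this paragraph stand beside 46.3% of all genes marked at an end and 3.56% of those broad. Cytoplasmic ribosomal genes were marked in 76 of 81 cases (median 1171 bp), mitochondrial ribosomal genes in 73 of 78 (1137 bp) and oxidative phosphorylation genes in 74 of 81 (1194 bp), each with 1 broad member, Rpl7 (2417 bp), Mrps34 (2319 bp) and Uqcrh (2396 bp). Each of these 3 shared its region with a neighbour. DNA replication genes had 26 of 29 marked, with the helicase subunits Mcm5 (2033 bp) and Mcm6 (2019 bp) broad and a median of 1154 bp. Proteasome genes had 37 of 39, a median of 1015 bp and no broad member. They stood at -127 bp relative to all genes, and at -193 to -55.0 bp in the alternatives. In the libraries alone they stood at -84.5, -72.0 and -55.0 bp. Cohesin, CTCF and YY1 genes had 12 of 15 and none broad: Mau2, a cohesin loader, had 1669 bp, Smc3 1577 bp and Yy1 992 bp, and all 3 libraries of Yy1 gave 977 to 988 bp.

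Clustered histone genes were marked in 60 of 67 cases, beside 46.3% of all genes, with a median of 794 bp, well under the 1142 bp of all genes. Of the 60, 13 were narrow, beside 3.55% of all genes. H3c14 had the shortest region at 259 bp, with 251, 208 and 228 bp in the libraries, followed by 262 bp over H2ac8 and H2bc8. These genes are short and lie close together, and joining peaks within 1000 bp moved the median to 9 bp above all genes. Numbered zinc finger genes had 253 of 367 marked, beside the same 46.3%, with a median of 1009 bp. Of the 253, 4 were broad (Zfp687, Zfp467, Zfp148 and Zfp276), beside 3.56% of all genes, and 8 narrow, a share close to the 3.55% of all genes. Of 1459 olfactory and vomeronasal receptor genes 3 had a region at an end. Of 39 Hox genes 9 did, with Hoxd4 (1728 bp) and Hoxa5 with Hoxa6 (1412 bp) the longest.

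Most marked genes had a single region. In or within 1000 bp of the span, 8289 genes (72.7%) had 1 region, 2212 had 2, 555 had 3 and 342 (3.00%) had 4 or more. Longer genes had more: the median span was 19.6 kb with 1 region and 120.2 kb with 4 or more. Gse1, a subunit of a histone demethylase complex, had the most, 19 regions in 353 kb, made of 20, 25 and 22 peaks in the libraries. Pde4d, a cyclic AMP phosphodiesterase, had 14 in 1302 kb, Bcor, a Polycomb corepressor, 12 in 124 kb, and Foxp1, a forkhead repressor, 10 in 597 kb. Baz2b and Ttc28 had 9 each, and Sgms1, Med12l, Igf1r and Plec 8 each, with Plec, the cytolinker plectin, holding them in 60.4 kb. Joining peaks within 1000 bp left 200 genes with 4 or more. Genes with a broad region at an end had 1.48 regions on average, against 1.38 for intermediate and 1.52 for narrow.

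The last comparison asked how YY1 and SMC3 peaks were spread over regions of different length. Over all regions, 43.8% held a YY1 peak and 20.4% a control SMC3 peak in at least 2 libraries. YY1 peaks stood in 78.5%, 84.6% and 50.3% of broad regions and in 17.5%, 25.7% and 5.41% of narrow ones. Library 3 was the lowest in both, and it also had the fewest YY1 peaks, 3750 against 8469 and 10699. The difference was 54.9 ± 8.74 points (exact sign permutation p = 0.25, n = 3). Control SMC3 peaks stood in 52.9%, 54.1% and 30.2% of broad and 8.46%, 8.14% and 3.11% of narrow regions, a difference of 39.2 ± 10.5 points (exact sign permutation p = 0.25, n = 3). The share rose at each step of length in each library, as the plot by length shows.

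**Figure D5:**
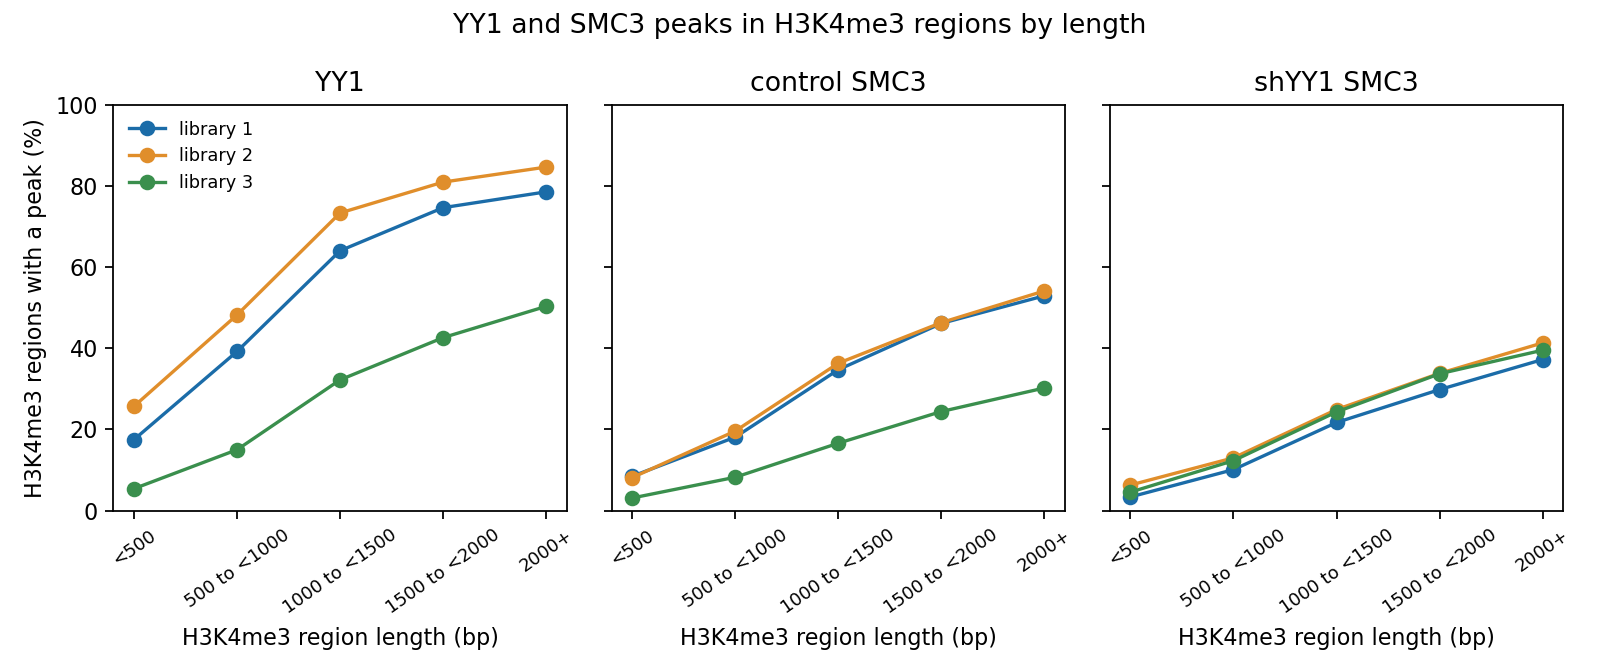
Percent of H3K4me3 regions with a YY1, control SMC3 or shYY1 SMC3 peak (y axis) in 5 classes of region length (x axis, bp), 1 line per library. All 9 lines rise from the shortest to the longest class, and library 3 of YY1 and of control SMC3 lies lowest.

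A longer region has more bases in which a peak can fall, and the difference shrank when the target had 1 size. With summits counted only within 250 bp of the midpoint, YY1 stood in 28.5%, 29.4% and 19.2% of broad and 17.3%, 25.4% and 5.30% of narrow regions, a difference of 9.67 ± 5.12 points. Intermediate regions had 33.3%, 40.3% and 16.2%, above broad ones in libraries 1 and 2. For control SMC3 broad exceeded narrow by 9.65 ± 3.03 points, and in library 2 intermediate regions (18.1%) exceeded broad ones (17.4%). A count around the annotated start, added after the data were seen, used regions with 1 start. Within 250 bp of it, a YY1 summit lay in 55.6%, 55.6% and 28.7% of broad, 55.4%, 61.2% and 23.5% of intermediate and 20.7%, 28.6% and 4.51% of narrow regions. Broad and intermediate regions were therefore not ordered the same way in the 3 libraries for YY1. For control SMC3 the shares were 36.8%, 37.4% and 21.6% of broad and 28.2%, 29.9% and 12.3% of intermediate regions, higher in broad in every library by this count around the start.

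Among the genes named above, Jun and Brd2 had YY1 and both arms of SMC3 in all libraries, as did Kmt2e. The broad region shared by Polr2l and Tspan4 had no peak of YY1 or SMC3 in any library, although its H3K4me3 was long in each. Tmc6 had YY1 in all 3 libraries and SMC3 in none. Of the progenitor factors, taken by the region at an end, Hhex, Zfpm1 (1012 bp) and Nfe2 (525 bp) were among those with both in every library. Runx1 (1365 bp), Ikzf1 (867 bp) and Gfi1 (986 bp) were among those with neither. Other regions in the gene spans were not counted for this.

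In shYY1 cells SMC3 peaks stood in 37.2%, 41.3% and 39.5% of broad regions, within the range of 30.2% to 54.1% of control. Over all regions 15.4% had one in at least 2 libraries. The arms differed by -6.40 points in broad regions, with an exact permutation p of 0.40 (two-sided, n = 3 per arm, smallest possible 0.1). Without control library 3 the difference was -14.1 points (exact p = 0.10, the smallest that 3 against 2 libraries allow), and without control libraries 1 or 2 it was -2.81 and -2.23. With the 2061 longest peaks of each list it was -0.969. Intermediate regions differed by -4.67 and narrow ones by -1.82 points, each with an exact p of 0.40 and n = 3. The rise with length was present in both arms, at 39.2 ± 10.5 points between broad and narrow in control and 34.6 ± 0.659 in shYY1, and whether the arms differ in it was not tested.

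In promoter sequence the widest gap in CpG number was between marked and unmarked genes. In windows from 250 bases before to 50 after the start, the median number of CpG was 23.5 for genes with a broad region at an end (288 windows), 22.0 for intermediate (7702) and 16.0 for narrow (269). It was 15.0 for genes marked inside only and 4.00 for the 8220 windows of genes without a region. Broad and intermediate genes had quartiles of 16.0 to 32.0 and 15.0 to 29.0, which overlap almost fully. With classes set in each library alone, broad exceeded narrow by 5, 5 and 7 CpG.

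Matches to TATAAA on either strand were in 6.94% of broad, 6.18% of intermediate, 12.3% of narrow and 20.9% of unmarked windows, beside 13.3% of all 17492. The YY1 motif AANATGGC, searched on both strands, was in 5.21% of broad, 10% of intermediate, 6.32% of narrow and 3.61% of unmarked windows, beside 6.69% of all. YY1 peaks in at least 2 libraries stood in the regions of 15 of 15 broad genes with a match and 215 of 273 (78.8%) without. In intermediate genes the counts were 617 of 772 (79.9%) and 4211 of 6930 (60.8%), and in narrow ones 8 of 17 and 28 of 252 (11.1%). Most YY1 peaks in broad regions thus stood at genes whose window held no match, which says only that these letters are not in that window.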

How the data were processed

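The deposited peak lists, 1 for each of the 12 H3K4me3, YY1 and SMC3 libraries, hold the positions that the authors called. These are start, end and summit offset in bp, with no height or score. Tools named by the submitters' processing notes are MACS2 2.2.9.1, Picard 3.1.1, Bowtie2 2.5.1 and cutadapt 4.5, with the build mm10; settings, thresholds and any use of IgG were not given in the sources used here. Starts were read as counted from 0 and are printed counted from 1. Genes, starts and promoters came from RefSeq tables of GRCm38.p6, the assembly of mm10. Regions were built with Python 3.11.15, pandas 2.3.3 and numpy 2.4.6, and a peak counted in a region from 1 bp of overlap. Libraries were compared with exact two-sided permutation tests. On simulated peaks over 16653 regions, 99.2% of regions were recovered and a planted difference of 50 points as 51.4. The simulated peaks were whole regions with slightly trimmed ends, left out at random and never split. This checked the code only, and it could not check region lengths where libraries split a region. Named genes were the 20 with the longest region at an end, up to 3 longest and 2 shortest of each list, the 10 with most regions and the 5 longest regions outside genes; other names in the text were chosen after their values were seen, and some that the rule selects are left out. The members and lists were chosen with earlier results of these data known.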

Additional observations from a re-analysis of the deposited data

How the results depend on the processing

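The number of broad regions (344) was 993 with peaks within 1000 bp joined, 157 with the median longest single peak as length and 8 from 3000 bp, and 184 to 328 when 1 library was left out. Genes with a broad region at an end (360) were 1001, 177 and 8 under the same settings and 200 to 342 without 1 library. Narrow regions (3380) were 2242 when 3 of 3 libraries were asked for, 707 under 300 bp and 2801 to 3652 without 1 library. Genes with 4 or more regions (342) were 200 with peaks joined and 266 to 305 without 1 library. The excess of CpG in broad over narrow genes (7.50) was 5 to 7 without 1 library. The median of progenitor factors, 130.0 bp under all genes, was above them by 418 bp with peaks joined, 132 bp with a window of 2500 bp, 214 bp at genes with their own start within 1000 bp and 253 bp for the longest region anywhere in the gene; the last 2 settings were added after the data were seen. Progenitor surface genes turned to -15.5 bp with single peaks, immediate early genes to -7.50 bp without H3K4me3 library 1 (-7.50 to 256 bp without 1 library) and clustered histones to 9 bp with peaks joined; the cause was not tested in these cases. The difference at gene ends kept its direction in 9 alternatives (36.9 to 63.4 points), as did YY1 (9.67 to 67.8) and control SMC3 (9.65 to 45.2) in 14 each. Taking same-numbered SMC3 libraries as a replicate block left -6.40 points with an exact p of 0.50; the pairs differed by -15.7, -12.8 and 9.30. Correlations of same-numbered libraries over regions were -0.065, 0.070 and -0.050, and 1 of 3 control libraries correlated best with its own number. They compare only which regions held a peak, so whether same-numbered libraries were prepared together cannot be told from them. Without the first SMC3 library of each arm, the ones described with Abcam, the difference was -1.74 points. Depth and peak height are unknown, which limits any statement on length to called peaks.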

Other observations

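Chromosomes differed in how many regions they held for their genes. Autosomes had 55.5 (chromosome 7) to 90.3 (chromosomes 12 and 15) regions per 100 protein-coding genes, the X chromosome 43.8 and the Y chromosome 2.34, with 6 regions beside 256 genes. Broad regions made up 3.77% of those on chromosome 17, where Brd2, Vars and Zfp36l2 lie, and 1.12% of those on chromosome 13. Median length per chromosome was 786 to 928 bp.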
